A study of Homo sapiens with 24 samples.

Results

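The 37 genes of the human mitochondrial genome were described by the strand on which each gene lies. They are every feature whose name starts with MT-, 37 of the 61248 features in each count table. All 37 were matched by name to the mitochondrial chromosome (chrM) of the GENCODE 29 annotation of GRCh38. The annotation places 9 of them on the light strand, namely MT-ND6 and 8 tRNA genes. The other 28 lie on the heavy strand and are 12 protein genes, 2 rRNA genes and 14 tRNA genes.

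The cells were H7, an established human embryonic stem cell line. The groups were 2 lines with a knockout (KO) of BRAT1 and 2 control lines, each at day 14 after ventral differentiation to neural progenitors and at day 0 as undifferentiated cells. The labels give 3 biological replicates, lettered A, B and C, for every line and day, so each genotype and day holds 6 libraries of 2 lines. How the knockout was made, and whether a line is 1 clone, is not given in the sources used here. Poly(A) RNA was isolated and libraries were made by Click-Seq, a method in which sequencing adapters are joined to the cDNA by click chemistry.

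The mitochondrial genome is a small circular DNA with genes packed on both strands. Each strand is copied into long precursor RNAs. tRNAs that lie between the other genes are cut out of these precursors, which frees the mRNAs and rRNAs, and most mRNAs are then given a poly(A) tail. All mitochondrial mRNAs code for subunits of the respiratory chain or of ATP synthase. MT-ND6, a membrane subunit of complex I, is the only protein gene of the light strand, and human MT-ND6 mRNA is known for lacking a stable poly(A) tail.

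Light strand and heavy strand are used here for the annotated strand of the gene that a count is filed under. The strand setting used in counting is not given in the sources used here. MALAT1, an abundant nuclear RNA, held only 0.00312% to 0.151% of the counts shared between it and TALAM1, the gene annotated on its opposite strand. Nearly all counts of that pair thus lay under TALAM1. Whether counts under the 37 features likewise come from RNA of the strand opposite the named gene was not tested. A count under a gene's name therefore need not measure that gene's own RNA. The same limit holds for BRAT1, the cell type markers and the nuclear genes named below.

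The members on which the comparisons turn are short tRNA genes beside MT-ND6 and MT-CYB, and their genes are shown with the anticodon in capitals. All are printed 5′ to 3′ on the strand of the gene, from the GENCODE 29 transcripts. MT-TE encodes the glutamic acid tRNA on the minus strand (chrM:14674-14742). MT-TP encodes the proline tRNA on the minus strand (chrM:15956-16023). MT-TT encodes the threonine tRNA on the plus strand (chrM:15888-15953).
MT-TE: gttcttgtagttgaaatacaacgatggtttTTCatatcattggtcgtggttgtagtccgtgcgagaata
MT-TP: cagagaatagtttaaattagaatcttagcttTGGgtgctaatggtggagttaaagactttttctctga
MT-TT: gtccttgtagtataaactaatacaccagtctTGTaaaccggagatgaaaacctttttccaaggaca

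MT-ND6 (chrM:14149-14673, minus strand) and MT-ND5 (plus strand) end against each other, with 0 bases between their annotated ends. Their last 30 bases are shown because the genes lie end to end on opposite strands. Capitals mark the last 3 bases of each gene, MT-ND5 at chrM:14119-14148 and MT-ND6 at chrM:14149-14178.
MT-ND5 end: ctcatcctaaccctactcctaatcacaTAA
MT-ND6 end: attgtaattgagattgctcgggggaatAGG
The strands differ in base composition over the protein genes. MT-ND6 was 35.6% G and 7.05% C in its sense strand, and the 12 heavy-strand protein genes together were 12.0% G and 33.1% C. Among those 12 genes, G ran from 6.28% to 16.2% and C from 29.5% to 36.0%, so MT-ND6 lay outside both ranges.

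The light-strand genes held 59.9% of all mitochondrial counts over the 24 libraries, and the heavy-strand genes held 40.1%. MT-ND6 alone held 3737712 counts, which is 56.7%. The 12 heavy-strand protein genes held 2630390 counts, or 39.9%. The 8 light-strand tRNA genes held 210362 counts (3.19%), with 1891 to 101219 counts per gene. The 14 heavy-strand tRNA genes held 5433 counts (0.0824%), with 0 to 2633 per gene and a median of 48.5. Per base of annotated length this was 381 counts for light-strand and 5.68 counts for heavy-strand tRNA genes. The rRNA genes MT-RNR1 and MT-RNR2, which encode the small and large ribosomal RNAs, held 7523 counts together, or 0.114%. MT-TV and MT-TL1 had 0 counts in every library, MT-TK had 1 and MT-TG had 5.

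Levels between genes are given as CPM, a library's counts scaled to a fixed library total, per kilobase of annotated length (CPM per kb), as the mean of 24 libraries. MT-ND6 stood highest at 114690 CPM per kb, followed by MT-TP at 29811. MT-TY, the tyrosine tRNA gene, stood at 10849 and MT-ND5, a complex I subunit, at 10588. Next came MT-ND4 at 6631, MT-TC (cysteine tRNA) at 5450, MT-CYB at 5062, MT-TE at 4949, MT-ND3 at 3744 and MT-TQ (glutamine tRNA) at 3184. MT-CO2 stood at 2508, MT-ATP6 at 2007, MT-ND4L at 1816, MT-ND2 at 1698, MT-CO1 at 1218 and MT-ND1 at 1032. MT-CO3 stood at 860.1 and MT-ATP8 at 838.1. The remaining light-strand tRNA genes MT-TS1, MT-TA and MT-TN had 779.6, 549.0 and 411.9 CPM per kb. MT-RNR2 had 76.4 and MT-RNR1 10.4 CPM per kb, and their ranges over the 24 libraries did not overlap. Of the heavy-strand tRNA genes, MT-TI had 677.2, MT-TW 356.1, MT-TT 160.0 and MT-TM 62.6 CPM per kb. MT-TF (phenylalanine), MT-TD (aspartic acid), MT-TH (histidine), MT-TL2 (leucine), MT-TS2 (serine) and MT-TR (arginine) held 128, 95, 52, 45, 29 and 26 counts in all libraries together. They were too low to be tested in the main comparisons of genotype, day and their interaction. MT-TF and MT-TD did pass the filter in the comparisons of lines at day 14. With every feature that had a count placed in this order, the ranges overlapped between every pair of neighbours, MT-ND6 and MT-TP included. Across the 12 heavy-strand protein genes, the log2 level was higher toward the end of the strand (Pearson r = 0.68 and Spearman rho = 0.69 with the start position, over 12 genes of the same libraries, as a description).

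**Figure D1:**
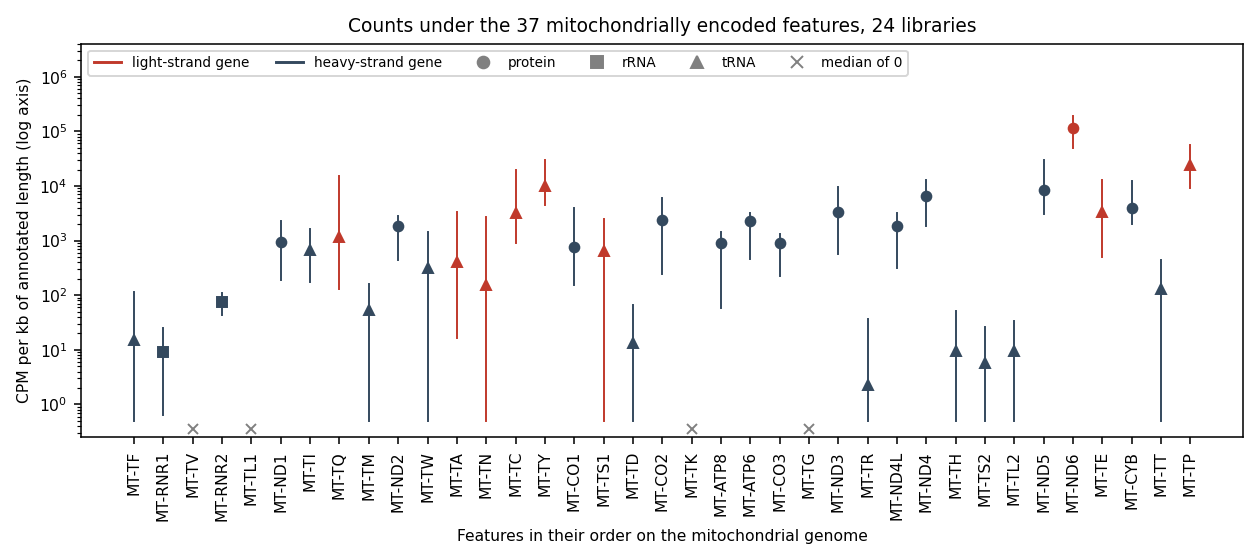
Median CPM per kilobase of annotated length over 24 libraries (points, log axis), with the lowest and highest library (lines), for the 37 mitochondrial features in genome order. A lowest value of 0 is drawn at the foot of the line and crosses mark features with a median of 0. The median of MT-ND6 lies above that of every other feature, and the light-strand tRNA genes lie above most heavy-strand tRNA genes.

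Nuclear copies of mitochondrial genes can share reads with them. By name, 402 features are such copies, 166 of them had a count, and together they held counts equal to 0.835% of the mitochondrial total. MTATP6P1 had 13618 counts, equal to 15.7% of those of MT-ATP6, and was 98.5% identical to it over 681 aligned bases. How many reads of MT-ATP6 were filed under this copy, or the reverse, was not tested. MTND6P4 had 27500 counts, equal to 0.736% of those of MT-ND6, at 95.0% identity over 522 bases. MT-ATP8 and MT-ATP6 overlap by 46 bases, MT-ND4L and MT-ND4 by 7, and MT-TI and MT-TQ, on opposite strands, by 3.

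Libraries held 2688218 to 3726227 counts in KO and 2228736 to 3682807 in control cells at day 14. At day 0 they held 1425141 to 2143871 counts in KO and 1407832 to 2059467 in control cells. A library had a count for 9299 to 15116 features at day 0 and for 20769 to 25247 at day 14. The part of this in comparisons that use day 0 was not tested. BRAT1 itself had 21 to 262 counts in KO against 414 to 1077 in control cells at day 14. The KO lines differed, with 7.66 to 16.9 CPM in line 1 and 71.2 to 86.8 CPM in line 2, against 186 to 317 CPM in control cells. At day 0 BRAT1 had 0 to 10 counts in KO against 0 to 6 in control cells, which is too few to check the labels of that day. Neural progenitor markers, all 12 with a count at day 14, summed to 641 to 1244 CPM in KO and 302 to 526 CPM in control cells, and to at most 124 CPM in any day 0 library. The 12 pluripotency markers summed to 68.6 to 163 CPM at day 14 and 48.4 to 299 CPM at day 0, with overlap. Among them POU5F1 had a median of 3.04 CPM at day 14 and 30.5 CPM at day 0. DNMT3B had 3.54 and 14.6 CPM. LIN28A went the other way, with 59.3 and 11.7 CPM, as did LIN28B, with 14.0 and 1.06 CPM. NANOG was near 0 on both days, with medians of 0.343 CPM at day 14 and 0.237 CPM at day 0. Of 9 tested pluripotency markers, 2 were called higher and 5 lower at day 14 in KO cells, beside 29.8% and 16.5% of all features. In control cells it was 1 and 5, beside 28.4% and 14.4%. The day 0 libraries lettered A stood apart in all 4 lines: mitochondrial features took 15.2% to 18.8% of their counts, against 4.19% to 7.32% in the day 0 libraries lettered B and C. Results that use day 0 are therefore given with and without the libraries lettered A.

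The first comparison asked what differed in day 14 neural progenitors without BRAT1. In KO cells the light-strand genes MT-ND6, MT-TE and MT-TC were higher, and MT-TP (light strand) and MT-TT (heavy strand) were lower. None of the 12 heavy-strand protein genes passed the test. Of the 37 genes, 27 passed the filter on low counts, and 3 were called higher and 2 lower (edgeR quasi-likelihood F test, Benjamini-Hochberg adjusted p under 0.05 over 11408 features). In the same comparison 21.7% of all tested features were called, 11% higher and 10.7% lower. The share of mitochondrial features called was therefore near the background. DESeq2 called 5 mitochondrial features higher, beside 12.6% of all features higher. With the replicate letter as a block the counts were 3 higher and 2 lower, beside 9.84% and 9.93%. The median log2 fold change, KO over control, was 0.12 over the 27 mitochondrial features and 0.07 over all features.

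MT-ND6 had a lowest, median and highest value of 77917, 85167 and 93248 CPM in KO cells, against 51971, 58403 and 62182 CPM in control cells. Every KO library lay above every control library, and so did the lines, with 80353 ± 3386 and 89139 ± 3688 CPM in KO lines 1 and 2 against 59184 ± 1412 and 56668 ± 5154 CPM in control lines 1 and 2 (SD, n = 3 each). KO cells were 0.54 higher on the log2 scale (SE 0.09, adjusted p = 0.000134 in edgeR). It was 0.37 with counts summed per line (edgeR adjusted p = 0.150), where a line counts as 1 sample. With all 24 libraries in 1 fit it was 0.54 (edgeR adjusted p = 0.688), a fit that also takes in the spread of the day 0 libraries. In bulk RNA, a different number of cells of a type and a different amount of RNA per cell cannot be told apart.

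MT-TE, which lies directly beside MT-ND6 on the same strand, had 767, 840 and 872 CPM as lowest, median and highest value in KO cells, against 300, 344 and 399 CPM in control cells. The groups did not overlap and the lowest KO library was well above the highest control library. MT-TE was thus 1.24 higher on the log2 scale (SE 0.11, adjusted p = 2.88e-09 in edgeR). It passed in all 24 alternatives, with values of 1.07 to 1.25. These values rested on 2063 to 3214 counts per KO library and 732 to 1461 per control library.

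MT-TP, the last light-strand gene by position, moved the other way. It had 624, 794 and 909 CPM in KO cells and 1083, 1166 and 1242 CPM in control cells as lowest, median and highest value, and the groups did not overlap. The difference on the log2 scale was -0.55 (SE 0.12, adjusted p = 0.00141 in edgeR), and it passed in all 24 alternatives with values of -0.72 to -0.48. MT-TT, whose gene ends beside that of MT-TP on the opposite strand, had 11 to 35 counts in KO and 23 to 96 in control libraries. Its level was 8.03 ± 3.26 CPM in KO and 18.3 ± 7.34 CPM in control cells (SD, n = 6 each), with overlapping groups. KO minus control on the log2 scale came to -1.21 (SE 0.35, adjusted p = 0.0137 in edgeR). The MT-TT call did not hold without control line 2 (log2 fold change -0.92, edgeR adjusted p = 0.230) or without KO line 1 (-0.88, edgeR adjusted p = 0.121).

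MT-TC had 121, 509 and 1281 CPM in KO cells and 60.1, 87.7 and 226 CPM in control cells as lowest, median and highest value. The KO libraries split widely, with 1281 CPM in line 1 replicate B and 995 and 825 CPM in line 2 replicates A and B. The other 3 had 121, 192 and 129 CPM and lay below the highest control library. MT-TC was 2.51 higher in KO cells on the log2 scale (SE 0.71, adjusted p = 0.0290 in edgeR). The call was lost in 12 of 24 alternatives, among them the fits without KO line 1 replicate B, KO line 2 replicate A or B, control line 1 replicate B or C, or any replicate of control line 2 (edgeR adjusted p = 0.0559 to 0.0653). Of the control libraries, line 1 replicate A was the highest.

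The other light-strand tRNA genes did not pass. MT-TY had 811 ± 173 CPM in KO and 650 ± 300 CPM in control cells. MT-TS1 (serine tRNA) had 94.9 ± 30.0 CPM in KO and 80.9 ± 23.7 CPM in control cells. MT-TQ had 64.9 to 1119 CPM in KO and 31.0 to 700 CPM in control cells, so the groups overlapped widely. MT-TN (asparagine tRNA) had 2.60 to 87.8 CPM in KO and 1.26 to 45.0 CPM in control cells. MT-TA (alanine tRNA) had 5.41 to 38.5 CPM in KO with a median of 23.4, and up to 230 CPM in control cells with a median of 33.2, and its fold change ran opposite to the others at -1.57 on the log2 scale (SE 0.82, edgeR adjusted p = 0.208). MT-TY, MT-TS1, MT-TQ and MT-TN thus had positive log2 fold changes and MT-TA a negative one, none past the threshold.

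**Figure D2:**
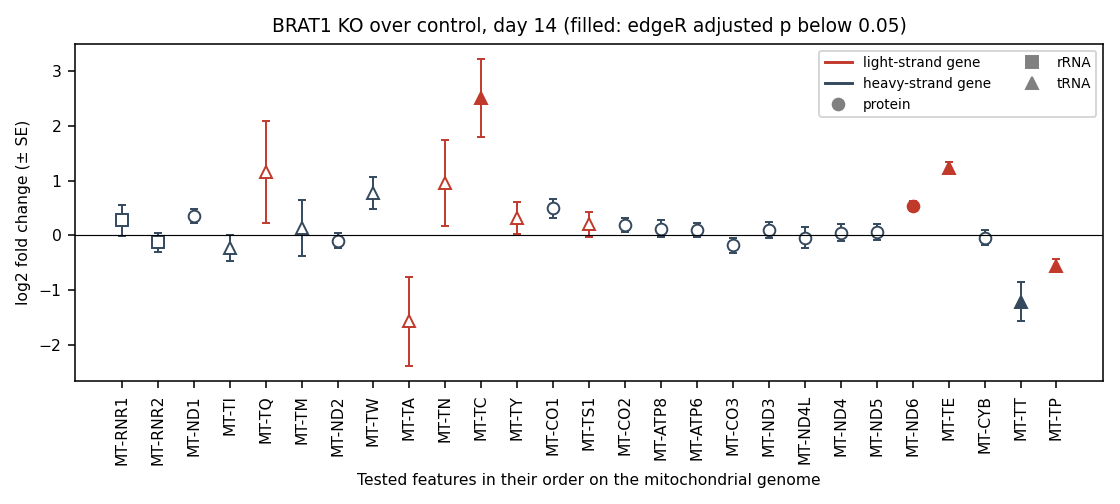
Log2 fold change of BRAT1 KO over control at day 14, with its standard error, for the 27 tested mitochondrial features in genome order (filled points: edgeR adjusted p under 0.05). MT-ND6, MT-TE and MT-TC lie above 0 and MT-TT and MT-TP below it, while the heavy-strand protein genes lie between -0.18 and 0.49.

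Heavy-strand protein genes ranged from -0.18 to 0.49 in log2 fold change, with a median of 0.08. Complex I subunits of this strand ran from -0.10 (MT-ND2, edgeR adjusted p = 0.658) to 0.35 (MT-ND1, 0.0592). MT-ND5, the most counted of them, had 16475 ± 3761 CPM in KO and 15692 ± 1940 CPM in control cells (SD, n = 6 each). MT-CYB, the cytochrome b of complex III, had 4329 ± 1022 CPM in KO and 4424 ± 551 CPM in control cells. Among the catalytic subunits of complex IV, MT-CO1 had 3814 ± 1309 CPM in KO and 2657 ± 670 CPM in control cells, the largest difference of the class (log2 fold change 0.49, SE 0.18, edgeR adjusted p = 0.0558). MT-CO1 passed with DESeq2 (adjusted p = 0.0363) and without KO line 1 replicate A (0.0481), KO line 1 replicate B (0.0182) or control line 2 replicate B (0.0338). MT-ND1 passed without KO line 1 (edgeR adjusted p = 0.0426) or without its replicate B alone (0.0314). MT-CO3 had -0.18 and passed as lower without KO line 2 (-0.46, edgeR adjusted p = 0.0186). MT-ATP6 and MT-ATP8, membrane subunits of ATP synthase, had log2 fold changes of 0.10 and 0.12. MT-RNR2 had 102 ± 32.3 CPM in KO and 109 ± 19.5 CPM in control cells, and MT-RNR1 had 16.7 ± 3.86 CPM in KO and 13.6 ± 4.01 CPM in control cells. Of the heavy-strand tRNA genes other than MT-TT, 3 were tested and none passed. MT-TW (tryptophan tRNA) was closest, with 17.9 to 53.9 CPM in KO and 8.53 to 25.9 CPM in control cells (log2 fold change 0.78, SE 0.29, edgeR adjusted p = 0.0529), and it passed with DESeq2 (adjusted p = 0.0442). It also passed without KO line 1 replicate B, KO line 2 replicate C or control line 2 replicate A (edgeR adjusted p = 0.0303, 0.0341 and 0.0498). MT-TI (isoleucine tRNA) had a log2 fold change of -0.23 and MT-TM (methionine tRNA) of 0.14.

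Sums over the classes were compared with an exact two-sided permutation test of 6 libraries against 6, whose smallest possible p is 0.00216, adjusted over 36 tests of 9 measures in 4 comparisons. Mitochondrial features took 13.4 ± 1.40% of all counts in KO and 10.4 ± 0.614% in control cells (SD, n = 6 each), with no overlap (exact p = 0.00216, adjusted p = 0.0156). MT-ND6 took 8.47 ± 0.576% in KO and 5.79 ± 0.365% in control cells, with the same p-values. The 12 heavy-strand protein genes together took 4.58 ± 0.915% in KO and 4.28 ± 0.426% in control cells (exact p = 0.506, adjusted p = 0.912). Light-strand tRNA genes took 0.360 ± 0.0669% in KO and 0.262 ± 0.0379% in control cells (exact p = 0.0108, adjusted p = 0.0487), and this did not hold in 9 of the 12 tests that left out 1 library.

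The light-strand share of mitochondrial counts was 66.0 ± 3.50% in KO and 58.5 ± 2.75% in control cells (exact p = 0.00433, adjusted p = 0.0223, SD, n = 6 each). The log2 ratio of MT-ND6 to the summed heavy-strand protein genes was 0.91 ± 0.22 in KO and 0.44 ± 0.17 in control cells, with the same p-values, and does not depend on scaling between libraries. The groups overlapped in both measures, and the lines lay in the order KO line 1 (68.1% light strand), KO line 2 (63.9%), control line 1 (60.4%) and control line 2 (56.6%). With lines as samples, 2 against 2, the smallest possible exact p is 0.333, so the difference cannot pass at that level. The neural progenitor markers moved with genotype in the same libraries, and their part in these differences was not tested.

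**Figure D3:**
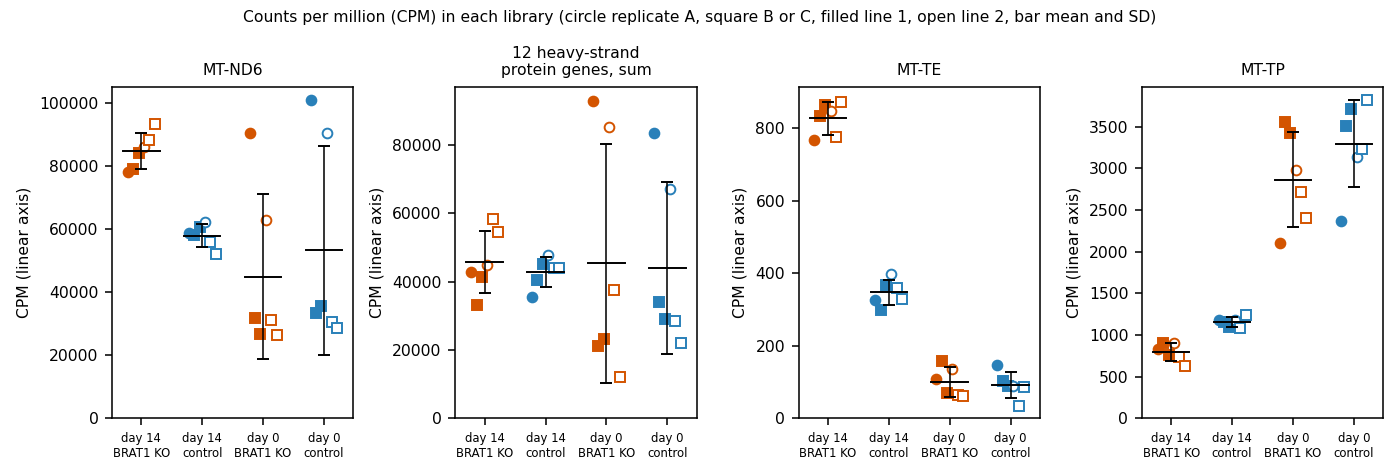
CPM in each library for MT-ND6, the sum of the 12 heavy-strand protein genes, MT-TE and MT-TP (linear axes from 0), with the mean and SD of each group of 6. At day 14 the KO libraries lie above the control libraries for MT-ND6 and MT-TE and below them for MT-TP, and at day 0 the libraries lettered A (circles) lie far above the others for MT-ND6 and the heavy-strand sum.

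Lines of 1 genotype gave a background for these differences. KO line 2 against KO line 1 at day 14 had 0 of 29 mitochondrial features called, beside 1.23% of all features, but 9 at an unadjusted p under 0.05 in edgeR. All but MT-TS1 of these 9 were heavy-strand protein genes higher in KO line 2, among them MT-ATP8 at a log2 fold change of 0.63, MT-ND3 at 0.57 and MT-CYB at 0.46. Control line 2 against control line 1 had 0 of 29 called at day 14, beside 0.107% of all features, and 2 at an unadjusted p under 0.05. At day 0 both comparisons of lines had 0 of 26 called, beside 0% of all features, with 0 unadjusted in KO and 1 in control cells.

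In undifferentiated cells no mitochondrial feature separated the genotypes. Of 24 tested, 0 were called by edgeR, beside 0% of all 4832 features, and 0 by DESeq2, and 2 had an unadjusted p under 0.05 in edgeR. MT-ND6 had 26566, 31502 and 90391 CPM in KO and 28653, 34409 and 100982 CPM in control cells as lowest, median and highest value (log2 fold change -0.26, SE 0.39). MT-TE had 100 ± 41.0 CPM in KO and 92.5 ± 36.3 CPM in control cells, and MT-TP 2864 ± 570 and 3296 ± 525 CPM in KO and control cells (SD, n = 6 each). Over all 6 libraries of a genotype the spread of MT-ND6 was thus wider than the difference found at day 14. Within letters B and C it was narrower, with 29092 ± 2809 CPM in KO and 32028 ± 2996 CPM in control cells (SD, n = 4 each) and a log2 fold change of -0.18 (SE 0.14, edgeR adjusted p = 0.999). None of the 9 class measures passed, and the light-strand share was 55.6 ± 10.1% in KO and 56.8 ± 2.76% in control cells. With the libraries lettered A alone, 2 against 2, MT-TQ was called higher in KO cells (log2 fold change 2.96, edgeR adjusted p = 0.00524), at 553 and 572 CPM in KO against 67.5 and 73.4 CPM in control cells. That fit called 0.0157% of all features, and without the letter A libraries MT-TQ did not pass.

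The wide spread at day 0 followed the replicate letter. Counts under MT-ND5 were 34963 to 53202 CPM in the 4 libraries lettered A and 5544 to 16436 CPM in the 8 lettered B and C, a ratio of means of 3.99. MT-ND3 had the largest ratio of the protein genes at 5.11, MT-ND6 had 2.82, MT-ND4 3.05 and MT-ATP6 2.90. For MT-ND1, MT-ND2, MT-CO2, MT-ATP6, MT-CO3, MT-ND3, MT-ND4L, MT-ND4, MT-ND5 and MT-ND6, all 4 libraries lettered A lay above all 8 others. MT-CO1 differed less, with a ratio of 1.47 and overlapping values. The tRNA genes went several ways. MT-TQ had a ratio of 7.68 in KO and 0.98 in control cells, and MT-TS1 one of 1.72 in KO and 21.6 in control cells. Over both genotypes the ratio was 1.43 for MT-TE, 0.80 for MT-TP, 0.61 for MT-TY and 0.33 for MT-TC. MT-RNR2 had a ratio of 0.88. These ratios are a description, with no test, since the letter was singled out after its values were seen, and no label says what the letters share. At day 14 the mitochondrial share of the libraries lettered A, at 9.70% to 13.6%, overlapped that of the others, at 9.83% to 15.1%.

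**Figure D4:**
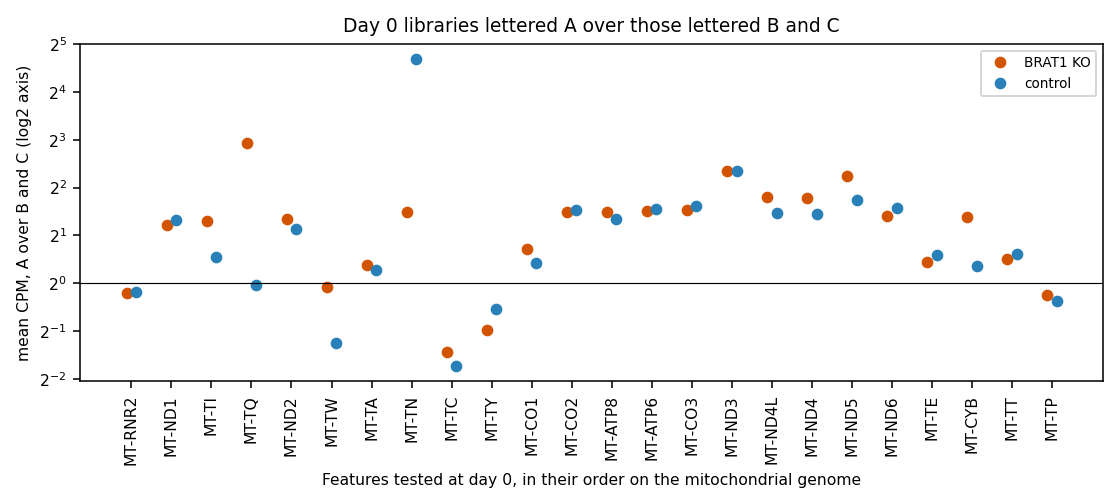
Mean CPM in the day 0 libraries lettered A over the mean in those lettered B and C (log2 axis), for KO (2 against 4 libraries) and control cells (2 against 4), for features tested at day 0 in genome order. Protein genes lie above 1 in both genotypes, with MT-ND3 and MT-ND5 highest among them, from 3.35 to 5.12, and MT-TC, MT-TY and MT-TP lie below 1.

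The next comparison asked how mitochondrial counts differed between day 14 progenitors and day 0 stem cells. In both genotypes MT-CO1, MT-CO2 and MT-TE were higher at day 14, and MT-TP, MT-CYB and MT-RNR2 were lower. In KO cells 6 of 27 tested features were called higher and 3 lower at day 14, beside 29.8% and 16.5% of all features (46.3% together). In control cells 3 were called higher and 5 lower, beside 28.4% and 14.4% (42.8% together). DESeq2 called 10 mitochondrial features higher in KO and 5 in control cells, beside 42% and 37.9% of all features higher. With the replicate letter as a block, 7 were higher and 3 lower in KO cells, beside 32.1% and 16%, and 4 higher and 5 lower in control cells, beside 31% and 13.5%. With a separate block for each day, 8 were lower in each genotype, beside 11.9% in KO and 9.1% in control cells. That fit takes letter A as the reference of each day. Its day fold changes therefore compare the letter A levels of day 14 and day 0. The median feature itself had a log2 fold change of 0.65 in KO and 0.60 in control cells under the TMM scaling used, and of 1.04 in KO and 0.83 in control cells under RLE scaling. Main changes are therefore also given relative to the median feature. On that footing MT-CO1 in KO cells lay between 1.77 and 1.79 over 5 scalings.

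MT-CO1 was the clearest of the heavy-strand genes. In KO cells it had 2423, 3565 and 6014 CPM at day 14 and 235, 512 and 688 CPM at day 0 as lowest, median and highest value. In control cells it had 1625, 2688 and 3581 CPM at day 14 and 366, 557 and 709 CPM at day 0. Days did not overlap in either genotype. The log2 fold change was 2.42 in KO (edgeR adjusted p = 3.43e-09) and 1.68 in control cells (edgeR adjusted p = 2.61e-06), or 1.77 and 1.08 above the median feature. MT-CO2 had 2985 ± 741 CPM at day 14 and 583 ± 359 CPM at day 0 in KO cells (log2 fold change 1.82, edgeR adjusted p = 0.000351). In control cells MT-CO2 had 2589 ± 419 CPM at day 14 and 705 ± 431 CPM at day 0 (1.28, edgeR adjusted p = 0.00778). MT-CO3, the third complex IV subunit, did not pass, at 0.37 in KO and 0.24 in control cells. Complex IV genes together took 16.8 ± 4.14% of the heavy-strand protein counts at day 14 and 3.98 ± 1.14% at day 0 in KO cells, and 14.5 ± 2.73% and 4.22 ± 0.675% in control cells. The days did not overlap in either genotype (exact p = 0.00216, the smallest possible, and adjusted p = 0.0156 in each).

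Light-strand tRNA genes again went both ways. MT-TE had 826 ± 44.5 CPM at day 14 and 100 ± 41.0 CPM at day 0 in KO cells, and 347 ± 35.5 and 92.5 ± 36.3 CPM at day 14 and day 0 in control cells (SD, n = 6 each). Its log2 fold change was 2.52 in KO (edgeR adjusted p = 7.19e-09) and 1.33 in control cells (edgeR adjusted p = 0.000162), or 1.87 and 0.73 above the median feature. MT-TP had 794 ± 109 CPM at day 14 and 2864 ± 570 CPM at day 0 in KO cells, and 1155 ± 59.8 and 3296 ± 525 CPM at day 14 and day 0 in control cells. Its log2 fold change was -2.37 in KO (edgeR adjusted p = 1.33e-13) and -2.03 in control cells (edgeR adjusted p = 5.98e-12), or -3.03 and -2.63 relative to the median feature. In all 38 alternatives MT-CO1, MT-TE and MT-TP passed in the same direction in both genotypes, and MT-CO2 did so in KO cells. In control cells MT-CO2 was not called without control line 2 (log2 fold change 1.13, edgeR adjusted p = 0.114) or with the letters as a block within each day (0.38, edgeR adjusted p = 0.253).

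Further tRNA and rRNA calls were less firm. MT-TN was called higher at day 14 in KO cells (log2 fold change 3.09, edgeR adjusted p = 0.0323), on 7 to 280 counts per library at day 14 and 0 to 22 at day 0. The MT-TN call was lost without KO line 2 replicate B of day 14, or without KO line 1 replicate A or C or KO line 2 replicate B or C of day 0 (edgeR adjusted p = 0.0605 to 0.0688). It was also lost in 5 other alternatives, among them a letter block within each day (1.01, edgeR adjusted p = 0.649). MT-TS1 was higher in KO cells (3.11, edgeR adjusted p = 0.0235), at 43.3 to 123 CPM at day 14 against 0 to 19.5 CPM at day 0. The MT-TS1 call in KO cells was lost in 5 alternatives, among them a letter block within each day (1.44, edgeR adjusted p = 0.496), no KO line 1 (1.97, 0.346) and summed lines (2.69, 0.120). In control cells MT-TS1 ran from 45.0 to 117 CPM at day 14, and at day 0 1 library, line 1 replicate A, had 173 CPM and the others 0 to 11.4 CPM. Without that library its log2 fold change in control cells was 3.87 (edgeR adjusted p = 0.000284), against 0.59 (edgeR adjusted p = 0.663) with it. MT-TC was lower at day 14 in control cells (-2.47, edgeR adjusted p = 0.00210) and not called in KO cells (0.33, edgeR adjusted p = 0.664). In control cells MT-TC did not pass without control line 2 (-1.89, edgeR adjusted p = 0.154), against letter A alone (-1.17, 0.310) or with a letter block within each day (-0.93, 0.2501). With that block it was higher in KO cells (1.57, 0.0497). MT-TY was lower in control cells (-0.82, adjusted p = 0.0488 in edgeR). It did not pass in 28 of 38 alternatives, and without control line 2 replicate B of day 0 it was -0.38 (edgeR adjusted p = 0.317). MT-RNR2 had a log2 fold change of -1.03 in KO (edgeR adjusted p = 0.000513) and -0.71 in control cells (edgeR adjusted p = 0.0130). The call in control cells was lost in 6 alternatives other than leaving out 1 library. It was also lost in 1 that left out a library, control line 1 replicate B of day 0 (-0.55, edgeR adjusted p = 0.0610). In KO cells the MT-RNR2 call was lost without KO line 2 (-0.71, edgeR adjusted p = 0.124).

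With all day 0 libraries, the day fold changes of the heavy-strand protein genes were lower toward the end of the strand. The log2 fold change, day 14 over day 0, had a Pearson r of -0.81 and a Spearman rho of -0.90 with start position in KO cells, and -0.78 and -0.87 in control cells, over 12 genes of the same libraries. This is a description across genes that share libraries and precursor RNA. It was not computed without the day 0 libraries lettered A. The ratio of those libraries to letters B and C itself differed between these genes, from 1.47 for MT-CO1 to 5.11 for MT-ND3, with 1.83 for MT-CYB. The part of the letters in the trend was not tested. MT-CYB, the last protein gene of the strand, was called lower at day 14, with -1.20 in KO (edgeR adjusted p = 0.0109) and -1.32 in control cells (edgeR adjusted p = 0.00650). Without the day 0 libraries lettered A the MT-CYB value in KO cells was -0.60 (edgeR adjusted p = 0.181), without KO line 1 it was -0.997 (0.133), and without control line 1 it was -0.83 in control cells (edgeR adjusted p = 0.218). MT-ND1, the first, was called higher in KO cells (1.54, edgeR adjusted p = 0.000414), a call lost with a letter block within each day (0.65, 0.103), and had 0.70 in control cells (edgeR adjusted p = 0.0860). In control cells MT-ND1 passed in 6 fits that left out 1 library, with 1.04 without day 0 control line 1 replicate A and 0.87 without day 0 control line 2 replicate A (edgeR adjusted p = 0.00970 and 0.0443). It also passed under RLE scaling (0.99, edgeR adjusted p = 0.0104). Relative to the median feature, MT-ND1 lay between 0.10 and 0.16 in control cells over 5 scalings. MT-ND4 and MT-ND5, between them, did not pass, at -0.44 and -1.04 in KO and -0.58 and -1.02 in control cells. Both were called lower with a letter block within each day, a comparison of letter A levels. There MT-ND4 was at -1.38 in KO and -1.58 in control cells and MT-ND5 at -2.04 in KO and -2.14 in control cells. With counts summed per line both were also lower, MT-ND4 at -0.81 in KO and -0.87 in control cells and MT-ND5 at -1.39 in KO and -1.32 in control cells.

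MT-ND6 had 77917 to 93248 CPM at day 14 and 26566 to 90391 CPM at day 0 in KO cells, and 51971 to 62182 CPM at day 14 and 28653 to 100982 CPM at day 0 in control cells. Day 14 values of control cells lay between the day 0 libraries lettered B and C and those lettered A. The log2 fold change was 0.40 in KO (edgeR adjusted p = 0.361) and -0.47 in control cells (edgeR adjusted p = 0.278). The direction depended on the letters. Without the day 0 libraries lettered A it was 1.00 in KO and 0.39 in control cells (edgeR adjusted p = 2.10e-09 and 0.00110). Against the day 0 libraries lettered A alone it was -0.36 in KO and -1.29 in control cells (edgeR adjusted p = 0.0221 and 8.69e-11). With a letter block within each day, which again compares letter A levels, it was -0.49 in KO and -1.26 in control cells (edgeR adjusted p = 0.0120 and 9.20e-08). MT-ND6 was also called higher in KO cells by DESeq2 (0.77, adjusted p = 0.0413) and with 1 letter block for both days (0.60, edgeR adjusted p = 0.0352), and lower in control cells with summed lines (-0.75, edgeR adjusted p = 0.00281). Under DESeq2 the median feature in KO cells had 1.05. With all day 0 libraries, MT-ND6 in KO cells lay between -0.28 and -0.26 relative to the median feature over 5 scalings. In control cells it lay between -1.07 and -1.02.

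Without the letter A libraries of day 0, 13 mitochondrial features were called higher in KO and 12 in control cells, beside 34% and 36.3% of all features. Against those libraries alone, 9 were called lower in KO and 11 in control cells, beside 12.5% and 9.99%. MT-ND5 was -2.10 in KO and -1.89 in control cells against letter A, and 0.10 and -0.04 in KO and control cells against letters B and C. The share of counts taken by all mitochondrial features was 13.4 ± 1.40% at day 14 and 9.47 ± 5.99% at day 0 in KO cells, and 10.4 ± 0.614% and 10.2 ± 5.73% at day 14 and day 0 in control cells, and neither passed (exact adjusted p = 0.367 and 0.976, n = 6 each).

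**Figure D5:**
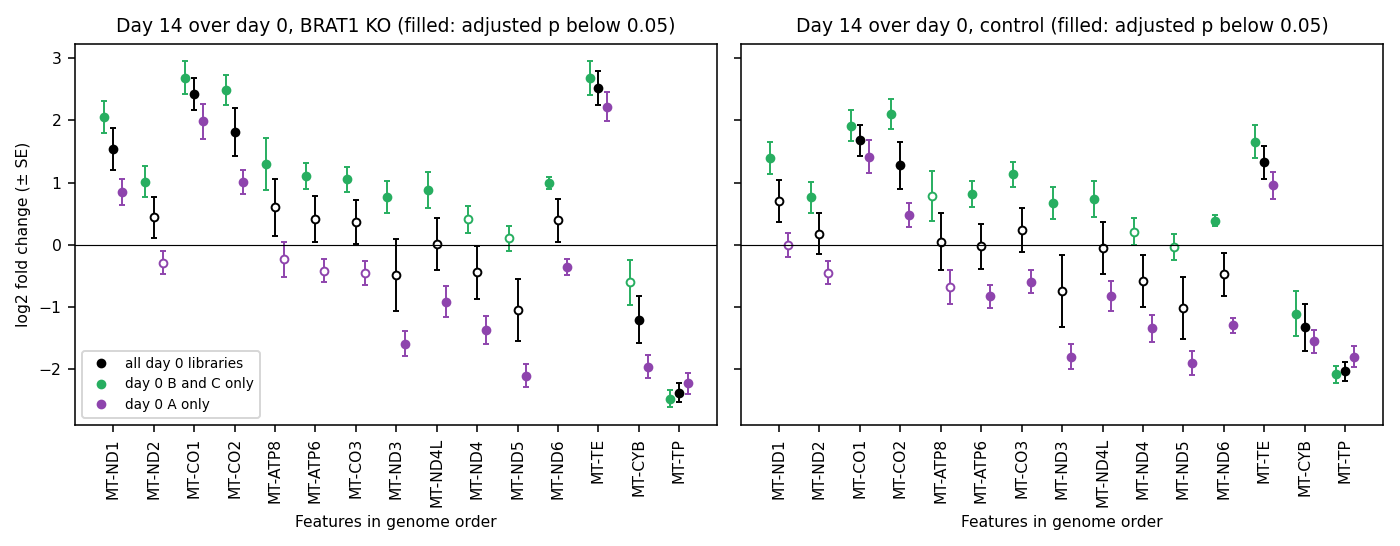
Log2 fold change of day 14 over day 0, with its standard error, in KO (left) and control cells (right), with all day 0 libraries, with letters B and C only and with letter A only (filled points: edgeR adjusted p under 0.05). MT-CO1, MT-CO2, MT-TE and MT-TP keep their side of 0 in all 3 choices, while MT-ND6 and MT-ND3 do not.

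The interaction asked whether the genotype difference itself differed between the days. Of 27 mitochondrial features, 0 were called by edgeR, beside 1.47% of all features, and 4 had an unadjusted p under 0.05, while DESeq2 called 3 higher, beside 2.82% of all features. The replicate block gave 0, beside 1.14%. Called higher were 1 without the day 0 libraries lettered A, beside 1.15%, 2 with those alone of day 0, beside 1.69%, and 2 with a block for each day, beside 0.492%. Among the genes called at day 14, MT-TC had 2.80 on the log2 scale (SE 0.82, edgeR adjusted p = 0.0887) and MT-TE 1.19 (SE 0.37, edgeR adjusted p = 0.0965). Further from the threshold were MT-TP at -0.34 (SE 0.21, 0.479) and MT-ND6 at 0.87 (SE 0.48, 0.421). For MT-ND6 the interaction was 0.61 without the day 0 libraries lettered A (edgeR adjusted p = 0.0121) and 0.93 with only those (0.00255). With a letter block within each day MT-ND6 was 0.77 (edgeR adjusted p = 0.00248) and MT-TC 2.49 (0.0338). MT-TC also passed with summed lines (2.52, 0.0285), and MT-TE under RLE scaling (1.31, 0.0479) and with letter A alone (1.26, 0.0113). MT-TC passed without control line 1 replicate A of day 0 (2.99, edgeR adjusted p = 0.0499), and MT-TE without control line 2 replicate B of day 0 (1.37, edgeR adjusted p = 0.0267). Whether the genotype difference in MT-ND6, MT-TC and MT-TE passes as different between the days thus depends on how the day 0 letters, the scaling and the lines are treated.

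Nuclear genes that serve the mitochondrial genome were counted in the same fits, day 14 KO against control first, where 11% of all features were called higher and 10.7% lower. With the strand setting not given, counts under these names need not be the genes' own RNA. Of genes for mitochondrial transcription, 1 of 6 tested was higher and 2 lower in KO cells. MTERF4, a member of the transcription termination factor family that acts in mitochondrial ribosome assembly, had a log2 fold change of 1.76 (edgeR adjusted p = 2.49e-07), and TFB1M, a methyltransferase of the small ribosomal RNA, had -1.09 (edgeR adjusted p = 0.00268). Of RNA processing genes, 1 of 9 was higher and 0 lower, namely TRMU, which thiolates mitochondrial tRNAs (1.68, edgeR adjusted p = 0.00457). Of DNA replication genes, 1 of 6 was higher (LIG3, a DNA ligase, 0.59) and 1 lower (POLG, the mitochondrial DNA polymerase, -0.57). Of nuclear complex I subunits, 0 of 21 were higher and 1 lower, NDUFB9 (-1.07, edgeR adjusted p = 3.36e-07). None of 7 subunits of complexes III and IV passed in edgeR, and of 9 ATP synthase subunits 1 was higher (ATP5PF, 0.57) and 1 lower (ATP5MF, -0.86). Medians ran from -0.89 for transcription to 0.30 for ATP synthase, beside 0.07 for all features.

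At day 14 against day 0, with 29.8% of all features called higher and 16.5% lower in KO cells and 28.4% and 14.4% in control cells, nuclear complex I subunits had 8 of 19 higher and 3 lower in KO cells, and 5 higher and 2 lower in control cells. NDUFS7, a core subunit, had log2 fold changes of 4.25 in KO and 4.49 in control cells, and NDUFC1, an accessory subunit, -2.20 in KO cells and was also called lower in control cells. ATP synthase subunits had 4 of 9 higher in KO and 3 of 9 in control cells, with 0 lower in either. Genes for RNA processing had 2 of 11 higher and 3 lower in KO cells, and 4 higher and 5 lower in control cells. Among them PRORP, the nuclease subunit that cuts the 5′ ends of mitochondrial tRNAs, had -1.42 in KO and -1.96 in control cells (edgeR adjusted p = 8.54e-06 and 5.58e-08). Nuclear copies of mitochondrial genes had 18 tested members, of which 7 were higher in each genotype. At day 14, KO against control, 3 of 21 copies were higher in KO cells, among them MTND6P3 (2.21) and MTND6P22 (0.98). Both are copies of MT-ND6, at 89.3% and 91.2% identity. How many reads of MT-ND6 were filed under them was not tested.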

How the data were processed

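The 24 libraries hold raw read counts per feature, which the authors deposited with no normalization. Per the submitters' processing notes the tools were bcl2fastq 2.20.0, STAR 2.7.9a, featureCounts of Subread 2.0.1, R 3.5.1 and DESeq2 1.34.0, with the build GRCh38. Neither the annotation release nor the strand setting was given in these notes or in the other sources used here. Members were matched by name to GENCODE 29, and all 37 were found on chrM. Positions are those of GENCODE 29 on GRCh38.

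Each comparison was fitted across all features that passed filterByExpr (minimum count 10, minimum total 15) with edgeR 4.0.16 (TMM scaling, robust quasi-likelihood F test, Benjamini-Hochberg adjusted p under 0.05) in R 4.3.3. Libraries of 1 genotype and day entered as 6 samples, so p-values measure the spread between these libraries, and 2 lines stand behind each group. The genotype comparisons used the 12 libraries of their day, and the day and interaction fits used all 24. Class sums were tested with exact two-sided permutation (scipy 1.17.1), and the log2 ratio used a pseudocount of 0.5. DESeq2 1.42.0, other scalings and filters, summed lines, left-out libraries and lines, and a block for the letter were the alternatives. The fits with and without the day 0 libraries lettered A, and the block within each day, were chosen after seeing the data. The block within each day had letter A as its reference, so its day fold changes compare letter A levels. The fit and the permutation test were tested on simulated data.

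MT-ND6, the other light-strand genes and every gene past the threshold are given with values, the heavy-strand protein and rRNA genes by range, and 2 genes per pathway list by smallest adjusted p. The members and lists were chosen with earlier results of these data known. Counting depth limits the tRNA genes of few reads, and reads without molecular identifiers are not independent molecules.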

Additional observations from a re-analysis of the deposited data

Results flagged for a closer look

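Of 144 groups of 6 libraries examined, 8 held 1 library far from the other 5 by Dixon's criterion, which chance meets in about 1 in 20 groups. At day 14 in control cells, MT-ND1 was lowest in line 2 replicate C at 861 CPM, MT-TC was highest in line 1 replicate A at 226 CPM, and MT-TQ was highest in line 2 replicate B at 699.8 CPM. At day 0 in KO cells, MT-RNR2 was lowest in line 1 replicate A at 93.3 CPM. At day 0 in control cells, MT-RNR2 was highest in line 1 replicate B at 171 CPM, MT-TS1 was highest in line 1 replicate A at 173 CPM, and MT-TY was highest in line 2 replicate B at 1954 CPM. The summed rRNA share of day 0 control cells was highest in line 1 replicate B, at 0.0179% of all counts.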

How the results depend on the processing

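At day 14, KO against control, DESeq2 called 5 mitochondrial features higher, and 1 was called lower with summed lines, with all 24 libraries in 1 fit, without control line 2 or without KO line 1. Leaving out 1 library gave 2 to 5 higher (5 without KO line 1 replicate B) and 2 lower. The mitochondrial percent differed by 4.20 without KO line 1, 1.95 without KO line 2, 2.94 without control line 1 and 3.21 without control line 2. In the same order the light-strand share differed by 5.42, 9.66, 9.43 and 5.66 points and the log2 ratio of MT-ND6 by 0.33, 0.61, 0.59 and 0.35. None of these 12 values passed. Leaving out a line sets 3 libraries against 6, where the smallest possible exact p is larger than with 6 against 6. A lack of calls there therefore cannot show that a difference rested on 1 line. At day 0, 1 feature was called higher with the libraries lettered A alone.

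For day 14 against day 0, DESeq2 called 10 higher in KO and 5 in control cells, and leaving out the day 0 libraries lettered A gave 13 and 12 in KO and control cells. In KO cells 6 were lower with summed lines, 9 against letter A alone and 8 with a block within each day. In control cells 3 were lower under RLE scaling or with no filter, 10 with summed lines, 2 without control line 1 or control line 2, 11 against letter A alone and 8 with a block within each day. Leaving out 1 library gave 5 to 8 higher in KO and 3 to 5 in control cells (5 without day 0 control line 1 replicate A). The mitochondrial percent differed by 7.72 in KO and 3.77 in control cells without letter A, past the threshold. Without day 0 KO line 2 replicate C the light-strand share in KO cells differed by 13.4 points and the log2 ratio by 0.90, past the threshold (ranges 8.04 to 13.4 and 0.59 to 0.90). The interaction had 3 called higher with DESeq2, 1 under RLE scaling, with summed lines or without letter A, 2 with letter A alone or a block within each day, and 0 to 1 when 1 library was left out (1 without day 0 control line 1 replicate A or line 2 replicate B).

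Signs turned in 11 values, all for day 14 against day 0, and the cause was not tested. Without letter A they were MT-ND3 at 0.77 in KO cells, and in control cells MT-ATP6 at 0.82, MT-ND3 at 0.67, MT-ND4L at 0.74, MT-ND6 at 0.39 and the heavy-strand protein percent at 1.44. Against letter A alone they were MT-ND4L at -0.91 and MT-ND6 at -0.36 in KO cells and MT-CO3 at -0.59 in control cells. With a block within each day, also a comparison of letter A levels, they were MT-ND4L at -0.997 and MT-ND6 at -0.49 in KO cells.

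No label says that a letter marks a shared batch. The deviations of each library from the mean of its line and day were compared. At day 0 these correlated at 0.0849 to 0.251 for same-lettered KO and control libraries (9 of 12 pairs over 0.1). For differently lettered ones it was -0.186 to 0.0183. Libraries of 1 letter thus deviated together, a hint from the data and not from the design. Deviations within a line cancel out, which pushes differently lettered values below 0 where same-lettered ones lie above it. At day 14 the ranges were -0.223 to 0.0397 and -0.0770 to 0.177. The main fits had no block, because no label gives one. They therefore do not take up what day 0 libraries of 1 letter share. With the letter as a replicate block, 3 features were called higher and 2 lower at day 14, 0 at day 0, 7 higher and 3 lower for the days in KO cells, 4 and 5 in control cells, and 0 in the interaction.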
